A study of Mus musculus with 8 samples.

Results

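The cyclins and cyclin-dependent kinases that drive mitosis and meiosis were followed in mouse testis in 4 genotypes. The 10 genes were the A-type cyclins Ccna1 and Ccna2, the B-type cyclins Ccnb1 and Ccnb2, the D-type cyclins Ccnd1, Ccnd2 and Ccnd3, the E-type cyclin Ccne1, and the kinases Cdk1 and Cdk2. Every probe set annotated to one of these symbols was taken, whatever its values. This gave 11 of the 12488 probe sets on the array, for 9 of the 10 genes. No probe set was listed for Ccnb1 in the annotation used here. One probe set of each of 8 genes was bright enough to be tested, and the other 3 probe sets, those of Ccnd2 and the dimmer ones of Ccnd1 and Cdk2, are given as values only.

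Samples labelled as total RNA of testis were measured, as cRNA, on 8 Affymetrix MG_U74Av2 arrays, 2 for each genotype. Mice labelled double knockout were Ku86-/- and Terc-/-, mice labelled Ku86 knockout were Ku86-/- with Terc intact, mice labelled Terc knockout were Terc-/- with Ku86 intact, and wild type mice carried both genes. Mice without Terc were of generation 3 (G3) without it, and strain and age are not given in the sources used here. Ku86, the protein of the Xrcc5 gene, binds broken DNA ends and telomeres, and Terc is the RNA template of telomerase, so the 4 groups allow the loss of each gene to be compared alone and together. The scanner's records call the samples germ cells, give 15 micrograms of cRNA per array and name a pool of 3 animals for double knockout replicate 1, and they mark wild type replicate 1 as a repeated hybridisation. Scanning took 3 days, each with a chip lot of its own, so that a lot cannot be told apart from a day. Replicate 1 of the double knockout and replicate 1 of the Ku86 knockout were scanned on day 1, all other knockout arrays and wild type replicate 2 on day 2, and wild type replicate 1 by itself on day 3.

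Cyclins are proteins that rise and fall through the cell cycle and switch on the kinases they bind. D-type cyclins act with Cdk4 and Cdk6 in G1, cyclin E with Cdk2 at the entry into S phase, A-type cyclins with Cdk2 and Cdk1 through S phase and G2, and B-type cyclins with Cdk1 at entry into division. The testis adds meiosis to this scheme. Ccna1 is found mainly in male germ cells, where mouse spermatocytes need it to leave prophase of the first meiotic division, whereas Ccna2 serves dividing cells in general and, in the testis, spermatogonia and early spermatocytes. Cdk2 sits on telomeres and on sites of recombination in meiotic prophase and is needed for meiosis in both sexes of the mouse.

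Array-wide values bear on every gene below. The median signal per array ran from 60.4 to 73 on the 6 knockout arrays, against 49.65 and 59.3 on the wild type arrays, in arbitrary intensity units, and a share of 15.6% to 26.0% of each array's probe sets did not exceed a floor of 11.8. The gene targeted in the Ku86 knockout went against its label. The brighter Xrcc5 probe set had signals of 259.0, 423.3, 419.9 and 458.8 on the arrays labelled as lacking Ku86, against 71.2, 11.1, 46.3 and 75.6 on the others, and it is not known here whether these probes lie in the deleted part. Terc had no probe set. Genotype names in all that follows are therefore those of the labels, and every direction rests on them.

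Markers of other testis cells also differed between genotypes. The summed signal of 7 measured spermatogonial markers (of 8 listed) was 1069 to 1345 in the double knockout, 762 to 942 in the Ku86 knockout and 926 to 958 in the Terc knockout, against 716 to 751 in wild type. The sum of 11 measured Sertoli cell markers (of 13) was 3574 to 4368 in the double knockout, 2243 to 3251 in the Ku86 knockout and 2700 to 3036 in the Terc knockout, against 1906 to 1943 in wild type. For 10 peritubular, vascular and matrix markers (of 10) the sums were 2007 to 2246 in the double knockout, 990 to 1676 in the Ku86 knockout and 1392 to 1589 in the Terc knockout, against 820 to 922 in wild type. On each of these 3 lists the sums of all 6 knockout arrays stood above those of both wild type arrays. Bright genes weigh most in such sums, Dazl and Uchl1 in the spermatogonial one and Clu and Aard in the Sertoli one. Single markers did not all follow. Uchl1 and Pecam1 on wild type replicate 1 exceeded several knockout arrays, and Gfra1 was highest on wild type replicate 2. Of the Sertoli markers, Fshr on wild type replicate 2 (315.6) exceeded both double knockout arrays (256.2 and 263.7). Amh, Clu and Ctsl also had a wild type array above a knockout array. The sums of Leydig, round and elongating spermatid, macrophage, epididymis and erythroid markers did not separate the knockout arrays from wild type. Spermatocyte markers, 6 measured of 9, did not separate that way, with sums of 17170 to 17366 in the double knockout, 16218 to 16318 in the Ku86 knockout, 15669 to 20217 in the Terc knockout and 17301 to 19150 in wild type, and the defining marker Sycp3 lay at or under the floor on all 8 arrays. In bulk samples such as these, fewer cells of a type and less RNA per cell cannot be told apart.

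No cyclin or kinase passed the test in any comparison. Linear models were fitted to all 7282 bright probe sets with limma, and calls were made where the p adjusted by Benjamini-Hochberg over all of them was under 0.05. Of the 8 tested cyclin and kinase probe sets, 0 were called in the double knockout, in the Ku86 knockout or in the Terc knockout against wild type, where 0.0275%, 0.0412% and 0.0275% of all tested probe sets were called. None was called for Ku86 loss averaged over Terc genotype (background 0%), for Terc loss averaged over Ku86 genotype (0.0137%) or for the interaction of both losses (0%). A moderated F test across the 4 genotypes called 0 members and 0% of all probe sets, with an adjusted p of 0.938 for each of the 8. At an unadjusted p under 0.05 there were 0 members in the double knockout against wild type (8.6% of all probe sets), 0 in the Ku86 knockout (5.9%), 2 in the Terc knockout (7.06%), 0 for averaged Ku86 loss (5.15%), 1 for averaged Terc loss (5.29%), 1 for the interaction (5.04%) and 0 in the F test (5.01%). The 3 comparisons against wild type share the same wild type arrays. With 2 arrays a group, and nothing in the labels to say that replicates came from separate animals, these p-values measure the spread between the samples only.

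**Figure D1:**
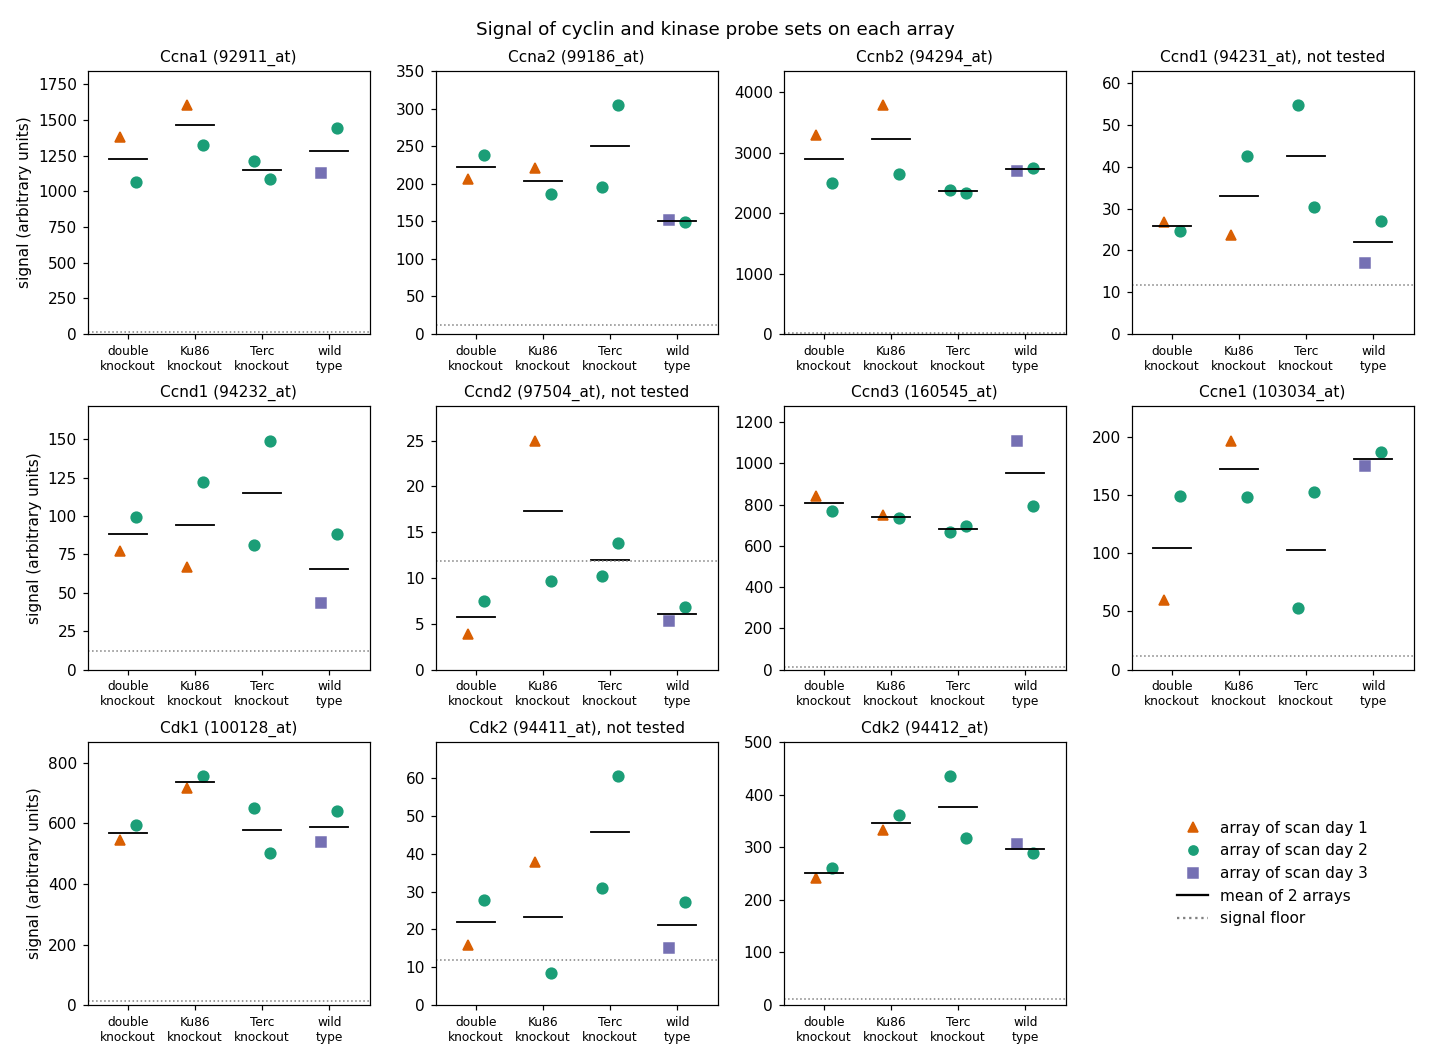
Signal of each of the 11 cyclin and kinase probe sets (vertical axis, linear, arbitrary units, from 0) on the 8 arrays, grouped by labelled genotype along the horizontal axis, with the double knockout at the left and wild type at the right. Marker shape and colour give the scan day, the black line is the mean of 2 arrays and the dotted line the floor of 11.8. Ccna2 is the one tested probe set shown with all 6 knockout arrays above both wild type arrays. Of all 7282 tested probe sets, 11.4% separated in this way, in one direction or the other. Ccnb2 has its highest values on the 2 arrays of scan day 1.

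The A-type cyclins differed in how they lay across genotypes. Ccna1, the meiotic form, had signals of 1382.7 and 1069.2 in the double knockout, 1605.1 and 1324.5 in the Ku86 knockout and 1216.5 and 1089.1 in the Terc knockout, against 1127.9 and 1442.4 in wild type. Each knockout group overlapped wild type, and the gap between the 2 wild type arrays was as wide as most gaps between genotypes. The log2 difference from wild type was -0.07 ± 0.210 (SE) in the double knockout, 0.19 ± 0.210 in the Ku86 knockout and -0.15 ± 0.210 in the Terc knockout (limma adjusted p = 0.974, 0.844 and 0.843). The value for the Ku86 knockout turned to -0.04 when each array was centred on its median, and to -0.15 with scan day as a block. Such centring shifts all probe sets alike, and the median over all tested ones then stood at -0.14 in the Ku86 knockout. In the double knockout the Ccna1 value turned positive after quantile normalization.

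Ccna2, the A-type cyclin of dividing cells, was the one tested member with all 6 knockout arrays on the same side of wild type. It had signals of 206.7 and 238.7 in the double knockout, 220.8 and 186.0 in the Ku86 knockout and 195.5 and 304.8 in the Terc knockout, against 152.5 and 149.2 in wild type. Every knockout value was above both wild type values, a pattern that 11.4% of the 7282 tested probe sets shared in one direction or the other. The order of the means was 250.2 ± 77.3 in the Terc knockout, 222.7 ± 22.6 in the double knockout, 203.4 ± 24.6 in the Ku86 knockout and 150.8 ± 2.33 in wild type (SD, n = 2 each), and the 3 knockouts overlapped each other. The 2 Terc knockout arrays themselves differed by 1.56-fold.

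The log2 difference of Ccna2 from wild type was 0.56 ± 0.279 (SE, limma adjusted p = 0.627) in the double knockout and 0.43 ± 0.279 (adjusted p = 0.802) in the Ku86 knockout. In the Terc knockout it was 0.69 ± 0.279 (unadjusted p = 0.0287, adjusted p = 0.672), which is 1.62-fold with a 95% interval of 1.06 to 2.47. Over all tested probe sets the median difference was 0.08, 0.10 and 0.11 in these 3 comparisons. Centring on the array median lowers every difference from wild type by 0.27, 0.23 and 0.33 in these 3 comparisons. It gave 0.29, 0.19 and 0.36 for Ccna2, and -0.19, -0.14 and -0.23 for the median over all tested probe sets. Within scan day 2, with a single array of every genotype but the Terc knockout, the 3 differences of Ccna2 were 0.68, 0.32 and 0.71. The spermatogonial, Sertoli and peritubular marker sums and the array medians separated the 6 knockout arrays from wild type in the same way, and their part in the Ccna2 values was not tested.

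Of the B-type cyclins Ccnb2 alone could be followed. Ccnb2, which activates Cdk1 at entry into division, had signals of 3288.1 and 2501.9 in the double knockout, 3787.7 and 2652.9 in the Ku86 knockout and 2389.0 and 2340.7 in the Terc knockout, against 2700.0 and 2751.7 in wild type. Both Terc knockout arrays were below both wild type arrays, while the double and Ku86 knockouts overlapped wild type. The 2 highest values belonged to the 2 arrays of scan day 1. The log2 difference from wild type was 0.07 ± 0.203 (SE) in the double knockout, 0.22 ± 0.203 in the Ku86 knockout and -0.20 ± 0.203 in the Terc knockout (limma adjusted p = 0.970, 0.828 and 0.783). Within scan day 2, with a single array of every genotype but the Terc knockout, these were -0.14, -0.05 and -0.22. The positive values of the double and Ku86 knockouts were not present there. Both also turned negative with median centring, where the median over all tested probe sets was -0.19 and -0.14. Averaged over Terc genotype, the loss of Ku86 gave 0.25 ± 0.143 in the fit to all arrays (adjusted p = 0.910) and 0.01 with scan day as a block.

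The kinases gave small differences. Cdk1, the kinase that B-type cyclins activate, had signals of 545.1 and 594.0 in the double knockout, 718.8 and 756.6 in the Ku86 knockout and 652.6 and 503.9 in the Terc knockout, against 538.6 and 640.9 in wild type. The 2 Ku86 knockout arrays were the 2 highest of the 8, and the other 3 genotypes overlapped. The share of probe sets with such a pattern was not counted. Of all tested probe sets, 38.1% had no overlap between the Ku86 knockout and wild type. The Ku86 knockout differed from wild type by 0.33 ± 0.214 on the log2 scale (SE, limma adjusted p = 0.802), a fold of 1.26, and by 0.24 within scan day 2. Centring on the array median brought this value to 0.09 and the median over all tested probe sets to -0.14. The double knockout and the Terc knockout differed from wild type by -0.05 and -0.03 (adjusted p = 0.977 and 0.972).

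Cdk2, the kinase that sits on meiotic telomeres, was lowest in the double knockout. Its brighter probe set had signals of 241.7 and 260.9 in the double knockout, 332.9 and 360.8 in the Ku86 knockout and 435.3 and 318.5 in the Terc knockout, against 305.9 and 288.2 in wild type. Both double knockout values were below all 6 others, and both single knockouts lay above wild type without overlap. How many probe sets share the first pattern was not counted. Lack of overlap with wild type held for 36.4%, 38.1% and 37.7% of all tested probe sets in the double, Ku86 and Terc knockouts. The log2 differences from wild type were -0.24 ± 0.237 (SE) in the double knockout, 0.22 ± 0.237 in the Ku86 knockout and 0.33 ± 0.237 in the Terc knockout (limma adjusted p = 0.849, 0.844 and 0.709). With median centring the values of both single knockouts turned to -0.01, and the double knockout stood at -0.51. The median over all tested probe sets was then -0.14 in the Ku86, -0.23 in the Terc and -0.19 in the double knockout. The interaction, the double knockout's difference from what the sum of the 2 single differences gives, was -0.79 ± 0.335 (unadjusted p = 0.0365, adjusted p = 0.875). It was -0.84 within scan day 2 and -0.49 with median centring, which raises the interaction of all probe sets alike by 0.30.

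The dimmer Cdk2 probe set did not pass the signal filter. It read 16.0 and 27.7 in the double knockout, 37.8 and 8.6 in the Ku86 knockout and 31.1 and 60.6 in the Terc knockout, against 15.0 and 27.4 in wild type. One of its 8 values was under the floor, and its replicates differed by up to 4.40-fold, so the Cdk2 pattern could not be checked on it.

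**Figure D2:**
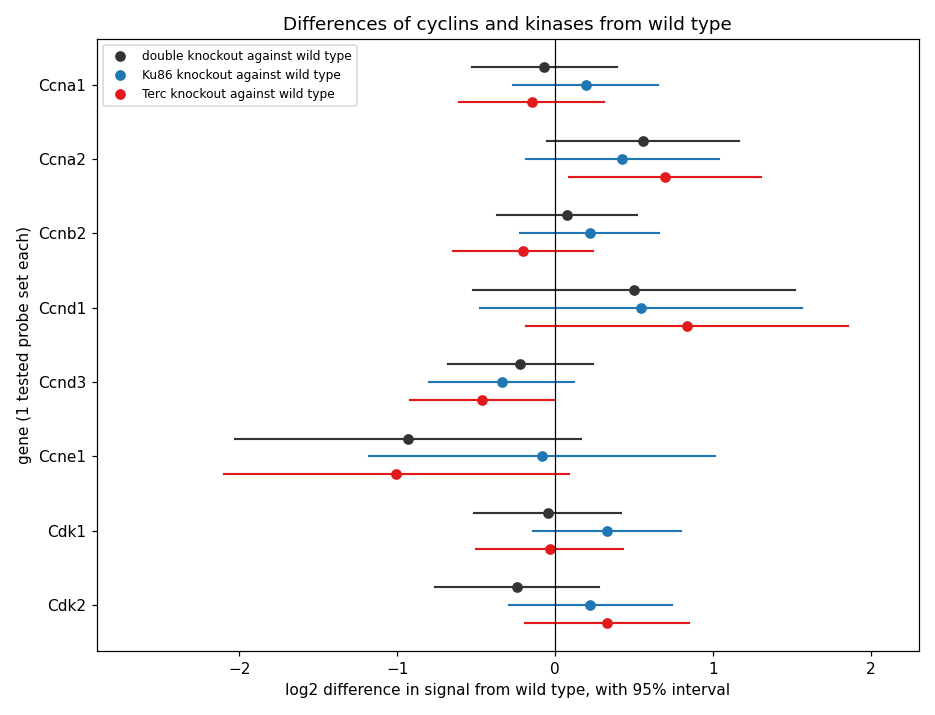
Log2 difference in signal from wild type (horizontal axis) for the tested probe set of each gene (rows), in the double knockout (black), the Ku86 knockout (blue) and the Terc knockout (red). Points are limma estimates and lines their unadjusted 95% intervals. In the Terc knockout the interval of Ccna2 (0.09 to 1.30) and, narrowly, that of Ccnd3 leave out 0, and Ccne1 has the widest intervals.

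Among the D-type cyclins, which link outside signals to the start of the cycle, Ccnd3 and Ccnd1 had a tested probe set and Ccnd2 lay near the floor. Ccnd3 had signals of 843.0 and 770.2 in the double knockout, 750.3 and 734.2 in the Ku86 knockout and 667.8 and 695.3 in the Terc knockout, against 1111.1 and 792.6 in wild type. The Ku86 and Terc knockout arrays were below both wild type arrays, and the double knockout overlapped them. The log2 difference from wild type was -0.22 ± 0.210 (SE, limma adjusted p = 0.846) in the double knockout, -0.34 ± 0.210 (adjusted p = 0.802) in the Ku86 knockout and -0.46 ± 0.210 (unadjusted p = 0.0490, adjusted p = 0.672) in the Terc knockout.

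The size of the Ccnd3 difference depended on wild type replicate 1, the array of scan day 3. Without that array the Terc knockout differed by -0.22 and the Ku86 knockout by -0.09, and the double knockout stood at 0.02. Ccnd3 thus had its lowest means in the Terc knockout (681.5 ± 19.4) and the Ku86 knockout (742.2 ± 11.4), followed by the double knockout (806.6 ± 51.5) and wild type (951.8 ± 225, SD, n = 2 each), and the SD of wild type was wider than the gap from its mean to those of the Ku86 and double knockouts.

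Ccnd1, a D-type cyclin of proliferating cells, had a tested probe set with signals of 76.9 and 99.4 in the double knockout, 66.5 and 122.0 in the Ku86 knockout and 81.4 and 149.1 in the Terc knockout, against 43.3 and 88.2 in wild type. The groups overlapped in all 3 comparisons, and in the double knockout, the Ku86 knockout and wild type, whose replicates were scanned on different days, the higher array was the one of scan day 2. Those pairs differed by 1.29-fold, 1.83-fold and 2.04-fold. The 2 Terc knockout arrays, both of scan day 2, differed by 1.83-fold. The log2 difference from wild type was 0.50 ± 0.467 (SE), 0.54 ± 0.467 and 0.83 ± 0.467 in the double, Ku86 and Terc knockouts (limma adjusted p = 0.839, 0.827 and 0.676). Within scan day 2 these were 0.17, 0.47 and 0.32. Without wild type replicate 1 they were -0.01, 0.03 and 0.32.

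The second Ccnd1 probe set was not tested. It read 26.9 and 24.6 in the double knockout, 23.7 and 42.6 in the Ku86 knockout and 54.8 and 30.4 in the Terc knockout, against 17.1 and 27.1 in wild type. It shared with the tested probe set the lowest value on wild type replicate 1, but in the double knockout and the Terc knockout the 2 probe sets put the replicates in opposite order. Ccnd2, known in the mouse as a cyclin of spermatogonia and gonadal somatic cells, read 3.9 and 7.5 in the double knockout, 25.0 and 9.7 in the Ku86 knockout and 10.2 and 13.8 in the Terc knockout, against 5.3 and 6.8 in wild type. With 6 of 8 values under the floor, its level has no order between genotypes.

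Ccne1, which pairs with Cdk2 at entry into S phase, had the widest spread between replicates among the tested probe sets. Its signals were 60.3 and 149.3 in the double knockout, 197.1 and 148.9 in the Ku86 knockout and 53.3 and 153.0 in the Terc knockout, against 175.5 and 187.1 in wild type. The double knockout and the Terc knockout lay below wild type on both arrays, but in each of them one array was far lower than the other, by 2.48-fold and 2.87-fold. The log2 difference from wild type was -0.93 ± 0.501 (SE, limma adjusted p = 0.652) in the double knockout, -0.08 ± 0.501 (adjusted p = 0.977) in the Ku86 knockout and -1.005 ± 0.501 (adjusted p = 0.672) in the Terc knockout. Leaving out the low array brought the double knockout to -0.28 and the Terc knockout to -0.24.

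Setting the 4 arrays that lack Terc against the 4 that carry it, Ccne1 averaged 104 ± 54.6 against 177.2 ± 20.8 (SD, n = 4 each). The 2 sets of arrays overlapped, since Ku86 knockout replicate 2 at 148.9 was below 2 of the arrays without Terc. The averaged log2 difference was -0.93 ± 0.354 (SE, unadjusted p = 0.0227, limma adjusted p = 0.904), and an exact two-sided permutation test over 70 groupings gave p = 0.0857, or 0.623 after adjustment over 16 such tests. It was the lowest p of the 16, where the smallest possible is 0.0286. Within scan day 2 the averaged difference was -0.52.

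**Figure D3:**
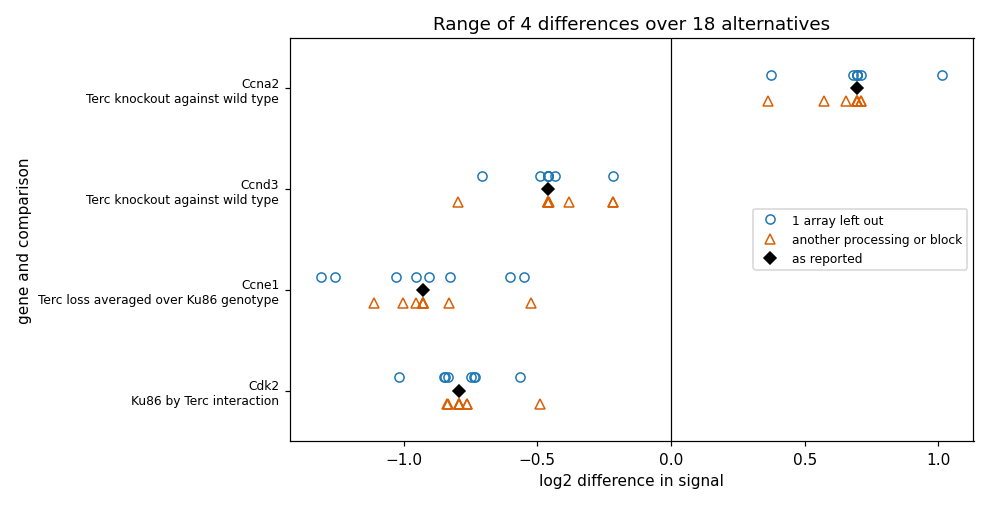
Log2 difference in signal (horizontal axis) of the 4 results at an unadjusted p under 0.05: Ccna2 and Ccnd3 in the Terc knockout against wild type, Ccne1 for Terc loss averaged over Ku86 genotype, and Cdk2 for the interaction. Black diamonds are the reported values, blue circles the values with 1 array left out and orange triangles those with another processing or a block. All alternatives keep the sign, but several of them cannot move an estimate, and the 4 results were picked for their p. The sizes run from 0.36 to 1.01 for Ccna2 and from -0.79 to -0.22 for Ccnd3. They run from -1.31 to -0.52 for Ccne1 and from -1.02 to -0.49 for Cdk2.

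Counting the tested members whose 2 arrays lay wholly above or below wild type gave 3 of 8 in the double knockout (Ccna2 above, Ccne1 and Cdk2 below), 4 of 8 in the Ku86 knockout (Ccna2, Cdk1 and Cdk2 above, Ccnd3 below) and 5 of 8 in the Terc knockout (Ccna2 and Cdk2 above, Ccnb2, Ccnd3 and Ccne1 below). Over all tested probe sets the same pattern held for 36.4%, 38.1% and 37.7%. With 4 arrays against 4, 0 members separated by Ku86 genotype, against 3.13% of all probe sets, and 0 by Terc genotype, against 2.27%. The median log2 difference of the 8 members from wild type was -0.06 in the double knockout, 0.22 in the Ku86 knockout and -0.09 in the Terc knockout, beside 0.08, 0.10 and 0.11 over all probe sets. For the averaged losses it was 0.12 for Ku86 and -0.17 for Terc, beside 0.03 and 0.04.

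Of the 28 pairs of tested members, Ccna1 and Ccnb2 had the highest correlation over all 8 arrays. Across the 8 arrays their log2 signals had a Pearson r of 0.82 and a Spearman rho of 0.81. Both were highest on Ku86 knockout replicate 1, and the r was 0.60 over the 6 arrays left without scan day 1 and 0.65 without the 2 arrays farthest from the Ccna1 median. Without scan day 1 that rank was lost to Ccna2 and Ccnd1 (0.72, and 0.62 over all 8 arrays), Ccna1 and Cdk1 (0.70) and Ccnb2 and Ccnd3 (0.64). Over all 8 arrays Ccna1 and Cdk1 had an r of 0.61 and Ccnb2 and Cdk1 one of 0.30. Ccnd1 and Ccnd3 ran opposite ways, with an r of -0.76, which was -0.12 without the 2 arrays farthest from the Ccnd1 median, -0.70 without the 2 farthest from the Ccnd3 median and -0.83 without scan day 1. These are descriptions over 8 arrays that share scan days and array scaling.

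**Figure D4:**
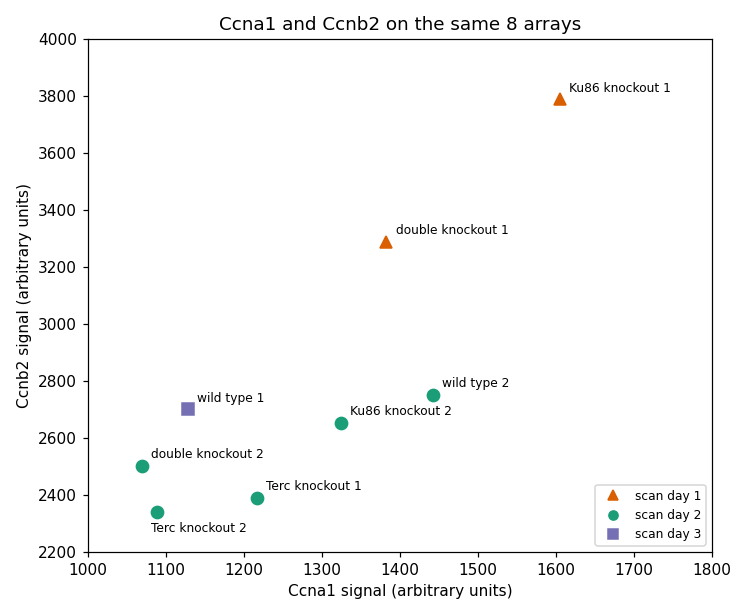
Signal of Ccna1 (horizontal axis) against Ccnb2 (vertical axis) on each of the 8 arrays, both linear in arbitrary units and not starting at 0, with each point labelled by genotype and replicate and marked by scan day. The 2 arrays of scan day 1 hold the 2 highest Ccnb2 values, and the Terc knockout arrays the 2 lowest.

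The promoters of Ccna1, Ccnb2 and Cdk1 are shown because these genes form the cyclin and kinase pairs of division and hold the pair with the highest r over all 8 arrays. In dividing cells such promoters are known for CCAAT boxes, which bind the factor NF-Y, and for the cell cycle gene homology region, TTTGAA. The table of RefSeq promoters used here (GRCm38.p6) matched 7 of the 10 genes, and those of Ccna2, Ccnd1 and Ccnd2 were not analysed here. The sequences are the 250 bases before the listed start, 5′ to 3′ on the gene's strand, with every CCAAT and TTTGAA on either strand in capitals (ATTGG and TTCAAA being the reverse forms). They are chr3:55055056-55055305 for Ccna1, chr9:70421555-70421804 for Ccnb2 and chr10:69352913-69353162 for Cdk1, all on the minus strand.
Ccna1: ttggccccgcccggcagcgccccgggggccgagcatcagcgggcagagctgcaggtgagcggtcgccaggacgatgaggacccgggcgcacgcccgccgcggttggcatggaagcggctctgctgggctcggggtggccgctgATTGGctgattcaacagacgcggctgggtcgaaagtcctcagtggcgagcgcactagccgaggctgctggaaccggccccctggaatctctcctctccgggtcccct
Ccnb2: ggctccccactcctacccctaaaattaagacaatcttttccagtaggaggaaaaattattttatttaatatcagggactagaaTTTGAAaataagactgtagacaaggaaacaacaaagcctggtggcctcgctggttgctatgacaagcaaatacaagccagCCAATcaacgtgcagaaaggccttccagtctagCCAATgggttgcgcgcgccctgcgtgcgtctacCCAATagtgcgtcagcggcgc
Cdk1: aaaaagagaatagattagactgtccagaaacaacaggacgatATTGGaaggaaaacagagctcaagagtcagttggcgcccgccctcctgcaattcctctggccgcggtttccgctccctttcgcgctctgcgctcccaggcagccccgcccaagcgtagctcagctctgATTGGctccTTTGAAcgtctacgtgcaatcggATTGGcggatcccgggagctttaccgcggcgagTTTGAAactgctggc

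Ccnb2 held 3 CCAAT boxes, whose first bases lie 87, 54 and 21 bases before the start and so are spaced by 33 bases, and a TTTGAA at 167. Cdk1 held 3 on the opposite strand, at 208, 80 and 48 bases, with TTTGAA at 71 and at 15. Ccna1 held a single ATTGG at 107 bases and no TTTGAA. Of 32851 promoters of the same length, 33.8% held at least 1 CCAAT, 2.79% at least 3, and 16% at least 1 TTTGAA. Ccnb1, which has no listed probe set, held 2 CCAAT boxes spaced by 32 bases. A match describes these letters only. The genes with 3 boxes each, Ccnb2 and Cdk1, had an r of 0.30. Ccnb2 and Ccna1, with 3 and 1, had the r of 0.82 given above, picked as the highest of 28 pairs. Whether these boxes bear on the signals was not tested.

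The tested probe set with 1 symbol whose log2 signal correlated best with each member over the 8 arrays was also named. It was Cyct for Ccna1 (r = 0.95), Zfp326 for Ccna2 (r = 0.99), Ccz1 for Ccnb2 (r = 0.95), Srsf10 for Ccnd1 (r = 0.98), Eif2b4 for Ccnd3 (r = 0.97), Apobec2 for Ccne1 (r = 0.95), Wdr78 for Cdk1 (r = 0.94) and Csf1 for Cdk2 (r = 0.90). Zfp326 had signals of 92.6 and 101.8 in the double knockout, 91.8 and 76.7 in the Ku86 knockout and 84.3 and 123.9 in the Terc knockout, against 65.8 and 67.1 in wild type. It was chosen for its likeness to Ccna2, so the shared pattern is not a separate result. The number of probe sets with an r over 0.9 ran from 1 for Cdk2 to 80 for Ccnd1.

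Around the members, 82 genes of the same pathway were listed, of which 60 had a probe set and 50 were tested. None of the 50 was called in any comparison. At an unadjusted p under 0.05, 5 were higher and 1 lower in the double knockout than in wild type (12% of the 50, beside 8.6% of all tested probe sets), 3 higher and 1 lower in the Ku86 knockout (8%, beside 5.9%) and 3 higher and 1 lower in the Terc knockout (8%, beside 7.06%). The shares were 10% for averaged Ku86 loss, 6% for averaged Terc loss and 4% for the interaction, beside 5.15%, 5.29% and 5.04% of all. In the double knockout the median log2 difference was 0.29 over the 8 tested kinases other than Cdk1 and Cdk2, with 8 of 8 above 0, 0.27 over the 11 genes of cyclin destruction, with 9 of 11 above 0, and 0.27 over the 7 pocket proteins and transcription factors, with 5 of 7 above 0. Over all probe sets it was 0.08, with 58.7% above 0. The other cyclins had a median of -0.01, the genes of phosphorylation and adaptors 0.09, and the other mitotic kinases and spindle checkpoint genes 0.06. Median centring lowers each of these differences by 0.27, which leaves the 3 highest medians near 0. It lowers the median over all probe sets alike, to -0.19, so the distance of each list from it is unchanged. In the Ku86 and Terc knockouts the median of the 8 kinases was 0.23 and 0.18, with 7 and 6 of 8 above 0. Cyclin destruction genes gave 0.21 and 0.22, with 10 of 11 above 0 in each. Pocket proteins and transcription factors gave 0.24 and 0.07, with 7 and 4 of 7 above 0. All probe sets gave 0.10 and 0.11, with 59.7% and 61.1% above 0. The median of the 5 inhibitor proteins was -0.25 in the double knockout, -0.24 in the Ku86 knockout and -0.28 in the Terc knockout.

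Cdkn1c, the inhibitor p57, lay lowest against wild type. Its signals were 997.9 and 914.6 in the double knockout, 959.7 and 880.1 in the Ku86 knockout and 1086.1 and 731.3 in the Terc knockout, against 2205.5 and 1491.2 in wild type, and no knockout array reached the lower wild type array. Its log2 difference was -0.92 ± 0.242 (SE, limma adjusted p = 0.349), -0.98 ± 0.242 (adjusted p = 0.502) and -1.02 ± 0.242 (adjusted p = 0.617) in the double, Ku86 and Terc knockouts. Ube2c, the ubiquitin-conjugating enzyme that marks mitotic cyclins for destruction, read 61.1 and 147.4 in the double knockout, 153.4 and 51.3 in the Ku86 knockout and 57.7 and 120.2 in the Terc knockout, against 14.6 and 38.5 in wild type. Here too all 6 knockout arrays were above both wild type arrays, and the limma adjusted p was 0.445, 0.802 and 0.672 in the 3 comparisons. Both genes were picked for groups that do not overlap, and 11.4% of all tested probe sets separated the 6 knockout arrays from wild type. The lower wild type signal of Ube2c was near the floor of 11.8, and the gene passed the mean signal filter of 38.1 through its knockout arrays.

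By genotype of 1 gene averaged over the other, Cdk4, the kinase partner of D-type cyclins, had signals of 458.2 to 530.2 on the 4 arrays without Ku86, against 353.4 to 432.4 on the 4 with it, and differed by 0.37 ± 0.155 (SE, limma adjusted p = 0.910). Cdk8, a kinase of the Mediator complex, differed by 0.29 ± 0.159 with Ku86 loss (adjusted p = 0.910). Plk4, the kinase of centriole duplication, read 136.8 to 211.4 on the 4 arrays without Terc, against 92.7 to 112.2 on the 4 with it, a difference of 0.59 ± 0.214 (adjusted p = 0.904). Aurka, the spindle kinase Aurora A, differed by -0.16 ± 0.125 with Terc loss (adjusted p = 0.967). These 4 genes too were picked for groups that do not overlap. That held for 3.13% of all tested probe sets by Ku86 genotype and 2.27% by Terc genotype. For the interaction, Cdkn1c stood at 1.08 ± 0.343 and Cdk5, best known in neurons, at 1.19 ± 0.492 (adjusted p = 0.875 for both).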

How the data were processed

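The authors deposited linear intensities per probe set, which they had scaled on each array (2%-trimmed means of 200.0 to 200.2). Their software is not stated in the labels or file headers. The scanner's records are deposited text with other settings and gave scan day, lot and the notes on samples. Probe sets were named from the platform annotation, with symbols updated through the RefSeq gene table (10855 with 1 symbol, 396 with several, 1237 with none).

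Intensities below the pooled 20th percentile (11.8) were raised to that value before log2. Leaving out 66 controls and 5140 probe sets whose geometric mean was under the pooled 40th percentile (38.1) left 7282. Limma 3.58.1 in R 4.3.3 (lmFit, eBayes with trend) fitted 1 mean per genotype to all 8 arrays, two-sided, and was tested on simulated data. Alternatives covered normalization, floor, filter, variance trend, blocks and each array left out. Array number limits the precision. Members and lists were chosen with earlier results of these data known. All member probe sets are named, as are the pathway genes with the 2 smallest p-values per comparison among those whose groups do not overlap (for the interaction, where overlap is not defined, the 2 smallest).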

Additional observations from a re-analysis of the deposited data

How the results depend on the processing

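Under 18 alternatives, 0 cyclin or kinase probe sets were called in any comparison, and the lowest adjusted p of any was 0.240. Of 864 alternative values of the 48 member differences, 791 moved by less than the spread between replicates and 73 by more. The sign changed in 53, and 27 of the 48 differences kept it throughout. Some of these values could not move. The replicate block and the fits without variance trend or filter leave every estimate as it was. Neither other floor reached the lowest tested member signal, 43.3. Leaving out an array of a genotype outside a comparison with wild type also changes nothing, so these counts are partly fixed in advance. The count of members at an unadjusted p under 0.05 ran from 0 to 4. Over all probe sets, calls ran from 0 to 30 in the double knockout, 0 to 15 in the Ku86 knockout and 0 to 17 in the Terc knockout against wild type, from 0 to 20 and 0 to 8 for averaged Ku86 and Terc loss, and from 0 to 9 for the interaction, each highest with the 5 arrays of scan day 2, where 1 pair of replicates gives the spread. The cause was not tested. With the replicate block, the number in the titles, 0 members were called and those at an unadjusted p under 0.05 in the Terc knockout went to 4. The labels do not say what the number marks. Deviations of same-numbered arrays correlated at 0.17 to 0.25 between the double knockout and the other genotypes and at 0.01 to 0.05 among the others, so pairing was not taken as given. Between the double and Ku86 knockouts the number follows the scan day, which was also fitted as a block. The exact permutation p reached its smallest value of 0.0286 with quantile normalization and with median centring (lowest adjusted p = 0.229). Having 2 arrays a group limits what differences can be seen, most of all for Ccne1, whose SD within genotypes was 0.72 on the log2 scale.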
